A study of Mus musculus with 12 samples.

Results

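The gene set described here comprised 31 genes that neurons use to shape their processes, to process their RNA, to release transmitter and to receive it. They were chosen by name, and all 31 were found among the 40597 loci of the authors' expression table. FPKM values, RNA fragments scaled by transcript length and by the size of the library, averaged at least 1 over the 12 libraries for 23 of the 31 genes. These 23 were tested along with every other locus at that level, 14931 in all. Genes on joined loci are uncertain, since the authors' table gives 1 value for all genes of such a locus. Gria2 shares its locus with the microRNA gene Gm25749, and Nlgn3 shares its locus with Gm21986 and Med12, so those 2 values are those of the joined loci.

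Neurons and neural stem cells share a lineage, and the genes that build axons, dendrites and synapses are largely switched on as a progenitor leaves the cell cycle. In dividing progenitors and in cells outside the nervous system many of these genes are held down by the repressor REST, which binds a DNA element called RE1. Glucocorticoids act through the glucocorticoid receptor, a transcription factor present in most cells, including the progenitors of the developing hypothalamus.

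The RNA came from primary neurospheres, free-floating cultures of neural stem and progenitor cells, grown from the hypothalamus of wild type C57Bl/6 mouse fetuses at embryonic day 14.5. The 4 groups were male cultures in ethanol vehicle, male cultures in 100 nM dexamethasone, female cultures in ethanol vehicle and female cultures in 100 nM dexamethasone, all at passage 3 and all exposed for 4 hours. Each group held 3 libraries of total RNA, which the labels call biological replicates. Whether a replicate was a fetus, a litter or a culture, and whether fetuses were pooled, is stated neither in the labels nor in the table, and p-values measure the spread between these libraries. A neurosphere holds stem cells, glial progenitors and some differentiating cells, so in these bulk libraries fewer cells of a type and less RNA per cell cannot be told apart.

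The cultures responded to the drug. Fkbp5, a glucocorticoid-induced co-chaperone of the receptor, measured 23.1 ± 2.38 FPKM in male vehicle and 116 ± 35.7 in male dexamethasone libraries, and 17.4 ± 3.11 and 109 ± 12.7 in the female ones (SD, n = 3). That is a log2 difference of 2.42 averaged over the sexes (adjusted p = 1.98e-05 in limma). Tsc22d3, another classic target, had a log2 difference of 2.43 (adjusted p = 0.000478 in limma). All 10 markers of neural stem and radial glial cells reached a mean of 1 FPKM, as did 8 of 8 astrocyte and 7 of 8 oligodendrocyte lineage markers, against 0 of 6 for microglia, 0 of 5 for endothelium and 0 of 5 for red blood cells. Of 9 genes that mark hypothalamic regions 2 reached it, and of 5 telencephalic genes 1 did. The 2 hypothalamic ones were the joined Six3 locus (26.5 FPKM on average) and Lhx2 (2.18 FPKM). The highest of the others was Fezf1 at 0.665 FPKM, and Nkx2-1 averaged 0.046 FPKM. The summed hypothalamic genes, mostly the Six3 locus, varied widely between libraries of a group. They were at 19.9 to 46.7 FPKM in male vehicle and 9.27 to 40.9 in male dexamethasone libraries. In females they were at 0.341 to 52.8 FPKM in vehicle and 0.339 to 55.3 in dexamethasone libraries. Libraries held 13755 to 14826 loci at 1 FPKM or more. Loci with no gene name made up 75% of the summed FPKM in male vehicle library 3 and 53.1% of male dexamethasone library 2, against 11.6% to 38.6% in the other 10, so results are also given without those libraries.

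The genes of the neuronal cytoskeleton and of process growth spanned the widest range of levels. Map2, which stabilizes microtubules in dendrites, was the highest gene of the set at a mean of 274 FPKM, and its 12 values lay between 219.7 (male vehicle library 1) and 334 (female vehicle library 2). Gap43, a membrane protein of growth cones, averaged 118 FPKM. Mapt, which encodes the axonal microtubule protein tau, averaged 23.1 FPKM and was below Map2 in all 12 libraries. Tubb3, a tubulin widely used to mark young neurons, averaged 4.98 FPKM.

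The other members of that group were near or under 1 FPKM. The neurofilament light chain Nefl averaged 1.27 FPKM and was the tested gene closest to the threshold, while the medium chain Nefm averaged 0.718 FPKM. Dcx, a microtubule protein of migrating neuroblasts, averaged 0.581 FPKM. Stmn2, a regulator of microtubules in growing axons, averaged 0.15 FPKM and was the only gene of the 31 listed at 0 in any library. It was at 0 in male vehicle library 3, male dexamethasone libraries 2 and 3 and female vehicle library 3, and an exact 0 in such a table can be a failed estimate. Among the RNA-binding proteins that mark neurons, Elavl4 averaged 4.85 FPKM, Elavl3 2.69 FPKM and Rbfox3, known as the mature-neuron antigen NeuN, 0.483 FPKM.

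Of the 7 genes for transmitter release, 6 reached a mean of 1 FPKM. Vesicles fuse through the SNARE proteins encoded by Vamp2 (6.31 FPKM on average), Snap25 (2.43 FPKM) and Stx1a (2.38 FPKM). The calcium sensor Syt1 averaged 1.63 FPKM and the vesicle membrane protein Syp 2.86 FPKM. The synapsins, which tether vesicles to the cytoskeleton, were split. Syn2 averaged 8.97 FPKM and Syn1 0.714 FPKM, and Syn2 was the higher in 12 of 12 libraries, with a ratio of means of 12.6. Syn3, the remaining synapsin and not in the set of 31, averaged 9.24 FPKM.

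Neither gene for GABA synthesis reached the threshold. Gad1 averaged 0.862 FPKM, just outside the tested set, and Gad2 averaged 0.122 FPKM, the lowest mean of the 31. Gad1 was above 1 FPKM in 4 libraries, with 1.04 in male vehicle library 2, 1.93 and 1.79 in female vehicle libraries 2 and 3, and 1.82 in female dexamethasone library 2. It was at 0.717 FPKM or less in the other 8.

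All 6 adhesion genes reached the threshold. Ncam1, a broad neural cell adhesion molecule, averaged 76.1 FPKM. Neurexins sit on the presynaptic membrane and bind neuroligins across the cleft. Nrxn2 averaged 20.2 FPKM and Nrxn3 1.89 FPKM, with Nrxn2 higher in 12 of 12 libraries. Among the neuroligins Nlgn1, typical of excitatory synapses, averaged 12.1 FPKM and Nlgn2, typical of inhibitory synapses, 8.3 FPKM, with Nlgn1 higher in 11 of 12 libraries. The joined Nlgn3 locus averaged 29.4 FPKM.

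Among the glutamate receptor genes, the scaffold gene and the joined Gria2 locus were the highest. Dlg4, which encodes the postsynaptic scaffold PSD-95, averaged 37.7 FPKM. The NMDA receptor subunit Grin1 averaged 2.93 FPKM and its partner Grin2b 0.204 FPKM. The AMPA receptor subunit Gria1 averaged 1.34 FPKM and the joined Gria2 locus 36.8 FPKM. In all, 17 of the 31 genes were at 1 FPKM or more in each of the 12 libraries.

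**Figure D1:**
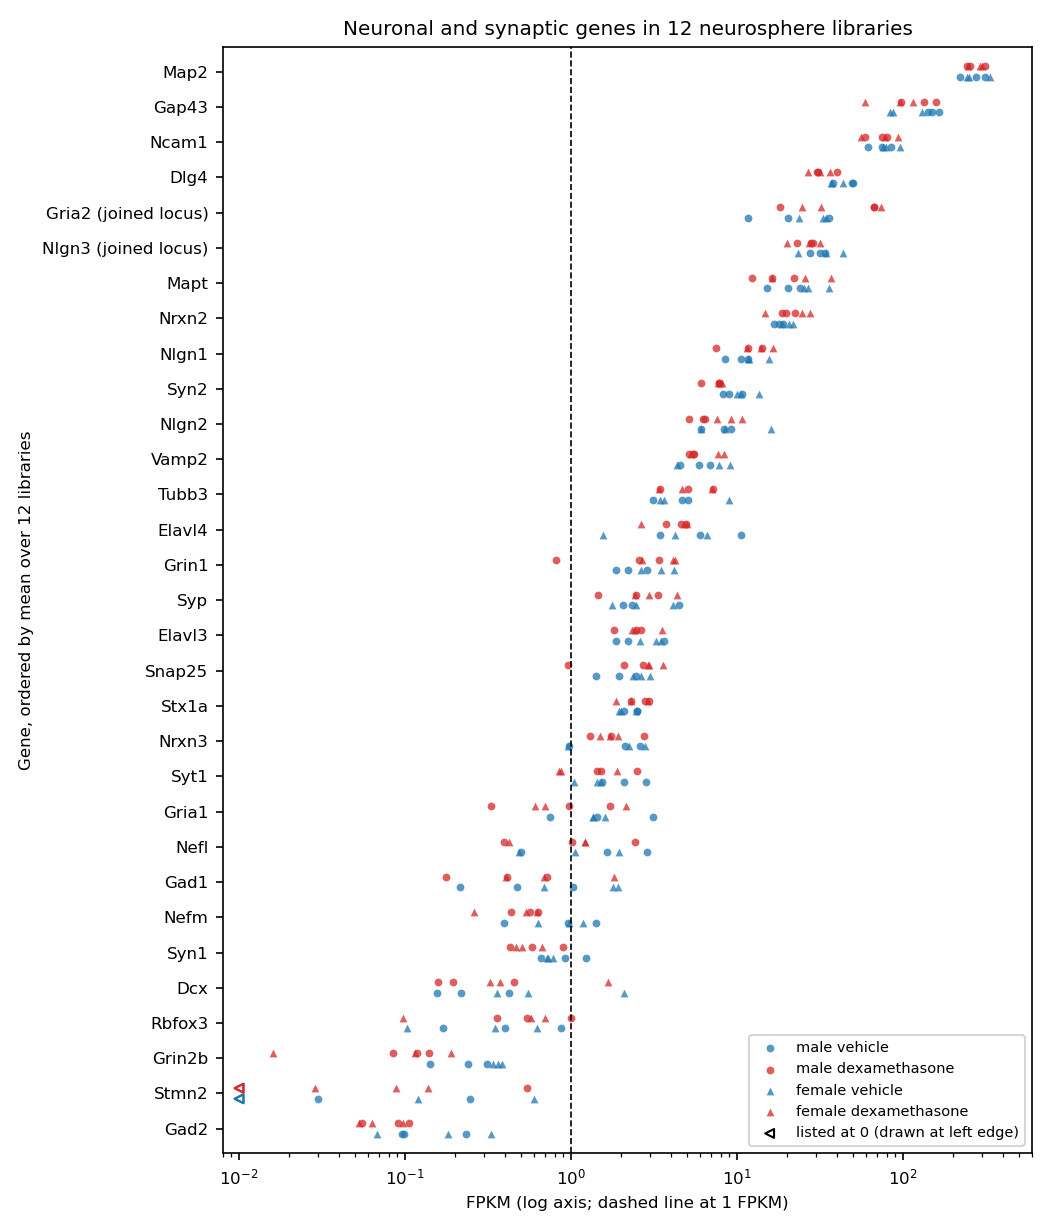
FPKM of the 31 genes (rows, ordered by mean) in each of 12 libraries on a log axis, circles for male and triangles for female cultures, blue for vehicle and red for dexamethasone, with a dashed line at 1 FPKM. Levels run from Map2 at a mean of 274 FPKM to Gad2 at 0.122 FPKM, and in nearly every row the red and blue points intermix.

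The plot of levels by gene shows that the differences between genes far exceeded those between treatments. Dexamethasone was then compared with vehicle by limma on log2(FPKM + 1), averaged over the sexes and within each sex, with Benjamini-Hochberg adjustment over all 14931 loci and a call at an adjusted p under 0.05. This scale understates the change of low genes. None of the 23 genes was called for the averaged effect, where 1.53% of all loci were called (229, with 171 or 1.15% higher and 58 or 0.388% lower). None was called in males (0.315% of all loci) or in females (0.482%).

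At an unadjusted p under 0.05, without correction for many tests, 2 of the 23 genes passed for the averaged effect in limma, Syn2 and Dlg4, beside 13.6% of all loci. The same 2 passed in males (6.38% of all loci), and Syn2 alone passed in females (8.02%). In males 0 passed without vehicle library 2 and 1 passed without vehicle library 3, dexamethasone library 2 or dexamethasone library 3. In females 3 passed without dexamethasone library 2 and 2 without vehicle library 1. The median log2 difference of the 23 genes was -0.11 for the averaged effect, beside -0.0067 over all loci, and 16 of the 23 values were below 0, beside 51.5% of all loci. With quantile normalization of the libraries 13 of the 23 were below 0. The median depended on single libraries. It was -0.014 without male vehicle library 2 (13 of 23 below 0), -0.041 without male dexamethasone library 3, and -0.054, -0.058 and -0.066 without female vehicle library 1, female dexamethasone library 1 and female dexamethasone library 2. The medians were -0.11 in males and -0.056 in females.

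Syn2 stood closest to a call. Its 3 male vehicle libraries were at 8.28, 10.8 and 9.02 FPKM and its 3 male dexamethasone libraries at 7.78, 7.82 and 6.07 FPKM. In females the vehicle libraries were at 9.98, 13.6 and 10.5 FPKM and the dexamethasone libraries at 7.93, 8.12 and 7.73 FPKM. All 6 dexamethasone libraries lay below all 6 vehicle libraries, although the gap between the highest dexamethasone library (8.12) and the lowest vehicle library (8.28) was narrow. Syn2 was the only gene of the 23 without overlap in that direction, a pattern seen at 0.804% of all loci.

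The log2 difference of Syn2 was -0.40 averaged over the sexes (SE 0.0965, 95% interval -0.61 to -0.18, adjusted p = 0.0939 in limma), -0.33 in males and -0.46 in females. Without male vehicle library 3 and male dexamethasone library 2 it was -0.43, with an adjusted p of 0.238 in limma, and over all 21 alternatives the adjusted p lay between 0.0535 and 0.238. Syn2 spans chr6:115134902-115282006 on the plus strand (GRCm38, GENCODE M21). The metalloproteinase inhibitor gene Timp4 lies inside it on the opposite strand and had a log2 difference of 0.83 (adjusted p = 0.0384 in limma). Timp4 was at 21 to 44.7 FPKM in the vehicle and 40.4 to 78.3 FPKM in the dexamethasone libraries, and was called in 11 of 21 alternatives. The libraries were made with a stranded kit, but no source used here gives the strand setting of the authors' counting. Reads of the 2 genes may therefore be mixed where they overlap, and the part of this in the Syn2 values was not tested.

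Syn1 was lower in level, with less separation. Its values were 0.656, 0.919 and 1.22 FPKM in male vehicle, 0.427, 0.893 and 0.582 in male dexamethasone, 0.729, 0.784 and 0.717 in female vehicle, and 0.463, 0.504 and 0.67 in female dexamethasone libraries. The female groups did not overlap and the male groups did. Among the tested loci, which exclude Syn1, 5.82% did not overlap in females in that direction. With the level threshold removed, its averaged log2 difference was -0.21 (adjusted p = 0.501 in limma). Syn1 overlaps Araf and contains Timp1, both on the opposite strand and at 38.7 and 13.5 FPKM on average. Its values are uncertain for the same reason. In all, 23 of the 31 genes are overlapped by another annotated gene, 17 of them by one on the opposite strand. Syn3, outside the 31, was not checked for such overlap.

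**Figure D2:**
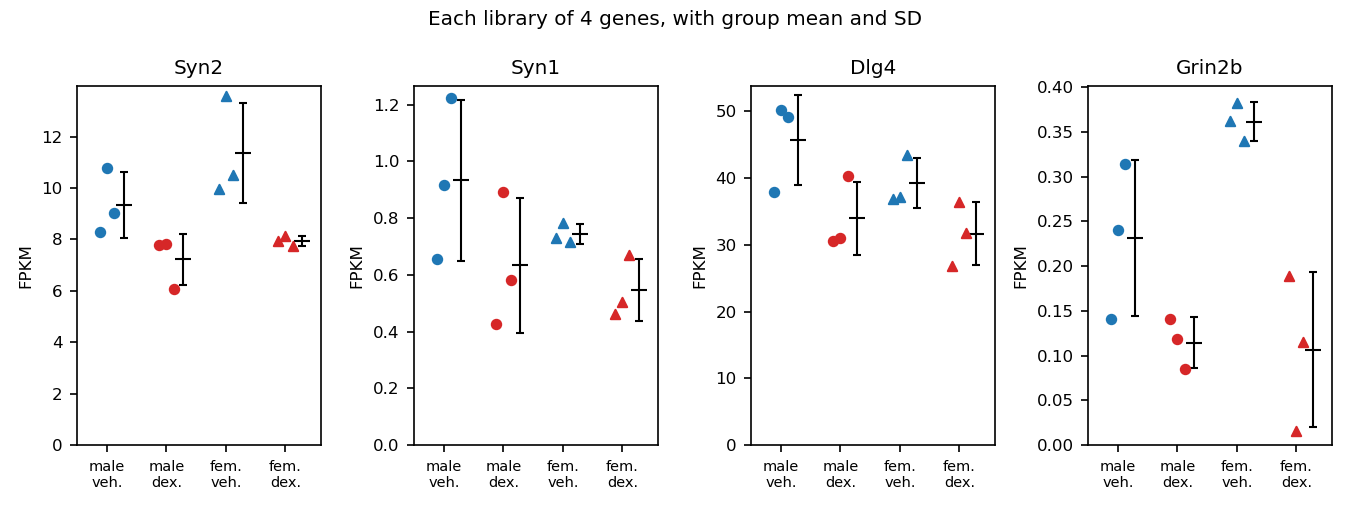
FPKM of Syn2, Syn1, Dlg4 and Grin2b in each library (points), by sex and treatment (veh., vehicle; dex., dexamethasone; fem., female), with the group mean and SD of 3 libraries beside them in black. The 6 dexamethasone values of Syn2 end at 8.12 FPKM, below the lowest vehicle value of 8.28 FPKM, while the other genes overlap between treatments once male and female libraries are combined.

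The 250 bases upstream of the RefSeq start are given for both synapsins and for Tubb3. Only CAGCACC, 7 letters from the first part of the RE1 element, was searched, not the full element. The sequences are from RefSeq on GRCm38.p6 and read 5′ to 3′ on the gene's strand. Each match to those 7 letters, on either strand, is in capitals.
Syn1 (chrX:20920919-20921168, minus strand): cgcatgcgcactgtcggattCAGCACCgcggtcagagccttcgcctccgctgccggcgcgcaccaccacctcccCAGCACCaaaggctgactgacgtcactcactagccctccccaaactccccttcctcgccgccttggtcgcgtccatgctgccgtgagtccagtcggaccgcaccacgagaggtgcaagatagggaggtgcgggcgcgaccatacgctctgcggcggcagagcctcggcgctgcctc
Syn2 (chr6:115134652-115134901, plus strand): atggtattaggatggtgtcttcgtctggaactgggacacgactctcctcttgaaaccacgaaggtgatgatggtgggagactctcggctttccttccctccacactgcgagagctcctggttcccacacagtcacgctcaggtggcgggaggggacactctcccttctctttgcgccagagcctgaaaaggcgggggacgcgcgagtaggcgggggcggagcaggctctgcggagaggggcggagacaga
Tubb3 (chr8:123411303-123411552, plus strand): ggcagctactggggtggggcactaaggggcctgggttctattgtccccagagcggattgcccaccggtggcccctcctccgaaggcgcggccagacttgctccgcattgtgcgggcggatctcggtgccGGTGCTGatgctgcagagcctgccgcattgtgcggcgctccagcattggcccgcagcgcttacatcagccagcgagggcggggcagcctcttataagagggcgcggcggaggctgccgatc
Syn1 held 2 matches, the first bases of which lie 230 and 176 bases before the RefSeq start, Syn2 held 0 and Tubb3 held 1 on the reverse strand, 121 bases before the RefSeq start. The GENCODE M21 starts of Syn1 (20921004) and Tubb3 (123411424) lie inside these windows, and the Tubb3 match lies within the gene as annotated there.

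Promoter entries matched 19 of the 31 genes, with 30 promoters in all. The letters CAGCACC from RE1 were present in 3 of the 30 (10.0%), those of Nlgn1, Tubb3 and Syn1, beside 5.73% of 32851 promoters. The palindromic glucocorticoid receptor motif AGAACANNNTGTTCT was in 0 of the 30 and in 3 of the 32851, or 0.00913%. Its 6-letter arm AGAACA, on either strand, was in 5 of the 30 (16.7%), those of Elavl4, Nlgn2, Rbfox3, Nrxn3 and Syp, beside 16.1% of all promoters. A match describes letters in this window only and is no evidence of a full RE1 element or of binding. Its relation to the levels of the genes was not tested.

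Dlg4, at chr11:70016942-70047522 on the plus strand, was the second gene with an unadjusted p under 0.05. Its values were 37.9, 50.2 and 49.1 FPKM in male vehicle and 30.6, 31 and 40.3 FPKM in male dexamethasone libraries. In females they were 36.9, 37.2 and 43.5 FPKM in vehicle and 26.9, 36.4 and 31.8 FPKM in dexamethasone libraries. Both sexes had lower means under dexamethasone, and the female groups did not overlap, as at 5.82% of all loci in that direction, where Syn2 and Dlg4 were the 2 genes of the 23. In males only Syn2 did not overlap (6.15% of all loci). Male dexamethasone library 3 was the 1 dexamethasone library above the lowest vehicle values.

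The averaged log2 difference of Dlg4 was -0.36 (SE 0.109, 95% interval -0.61 to -0.12, adjusted p = 0.188 in limma). It was -0.42 in males and -0.31 in females, and -0.31 averaged without the 2 libraries rich in unnamed loci (adjusted p = 0.543 in limma). The partners of this scaffold gave wide intervals. Gria1 had an averaged log2 difference of -0.34 with a 95% interval from -0.95 to 0.27, and Grin1 of -0.017 with an interval from -0.50 to 0.47.

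Grin2b was too low to be tested with the rest. It was at 0.14, 0.24 and 0.314 FPKM in male vehicle, 0.14, 0.119 and 0.0846 in male dexamethasone, 0.362, 0.383 and 0.34 in female vehicle, and 0.189, 0.0161 and 0.115 in female dexamethasone libraries. The female groups did not overlap, beside 5.82% of the tested loci in that direction, which exclude Grin2b. In males the highest dexamethasone library and the lowest vehicle library were both at 0.14, so that the groups touched. With the level threshold removed its averaged log2 difference was -0.22 (adjusted p = 0.0735 in limma). A level this low rests on few fragments, and how few is unknown because FPKM keep no counts.

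The joined Gria2 locus had the largest positive value and the least certain one. It was at 11.7, 20.3 and 35.8 FPKM in male vehicle and 18.2, 67.3 and 67.0 FPKM in male dexamethasone libraries. In females the vehicle libraries were at 33.0, 34.5 and 23.5 FPKM and the dexamethasone libraries at 73.7, 24.6 and 32.2 FPKM. The 3 highest values, at 67.0 FPKM or more, were all of dexamethasone libraries and stood above all others, and the groups overlapped in both sexes. The log2 difference was 0.71 (95% interval -0.20 to 1.62, adjusted p = 0.474 in limma). The microRNA gene in this locus cannot be separated from Gria2 in the table.

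In the cytoskeletal group the averaged log2 differences were all small against their intervals. Map2 gave 0.015 (95% interval -0.25 to 0.28) and was at 269.6 ± 46.6 FPKM in male vehicle, 270.1 ± 38.0 in male dexamethasone, 276.6 ± 49.7 in female vehicle and 279 ± 27.8 in female dexamethasone libraries (SD, n = 3). Gap43 gave -0.21 (interval -0.63 to 0.20), Mapt -0.23 (interval -0.70 to 0.25), Nefl -0.17 (interval -0.86 to 0.52) and Tubb3 0.10 (interval -0.47 to 0.67). The RNA-binding proteins Elavl3 and Elavl4 gave -0.12 and -0.15. Without the level threshold the untested genes of these groups, Nefm (-0.33), Dcx (-0.071), Stmn2 (-0.037) and Rbfox3 (0.12), had adjusted p-values of 0.468, 0.939, 0.949 and 0.828 in limma. Likewise Gad1 gave -0.23 (adjusted p = 0.749 in limma) and Gad2 -0.11 (0.505).

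Apart from Syn2, the release genes lay between -0.14 (Syt1) and 0.11 (Stx1a). The SNARE gene Stx1a, whose libraries varied least, had a 95% interval from -0.13 to 0.34, Snap25 gave 0.070 (interval -0.29 to 0.43), Vamp2 -0.020 (interval -0.40 to 0.36) and Syp -0.0052 (interval -0.51 to 0.50). The adhesion genes lay between -0.28 (the joined Nlgn3 locus, interval -0.63 to 0.078) and 0.13 (Nrxn2, interval -0.17 to 0.43). Between them were Nlgn2 at -0.20, Ncam1 at -0.11, Nrxn3 at -0.031 and Nlgn1 at 0.089. Over the 23 genes the 95% interval reached 0.38 (median) to each side of the estimate on the log2 scale, from 0.216 for Syn2 to 0.912 for the Gria2 locus. Differences within it were not detectable with 3 libraries per group. These intervals are not adjusted for many tests, and a call needed a larger difference. Syn2 and Dlg4 lay outside theirs and were still not called.

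**Figure D3:**
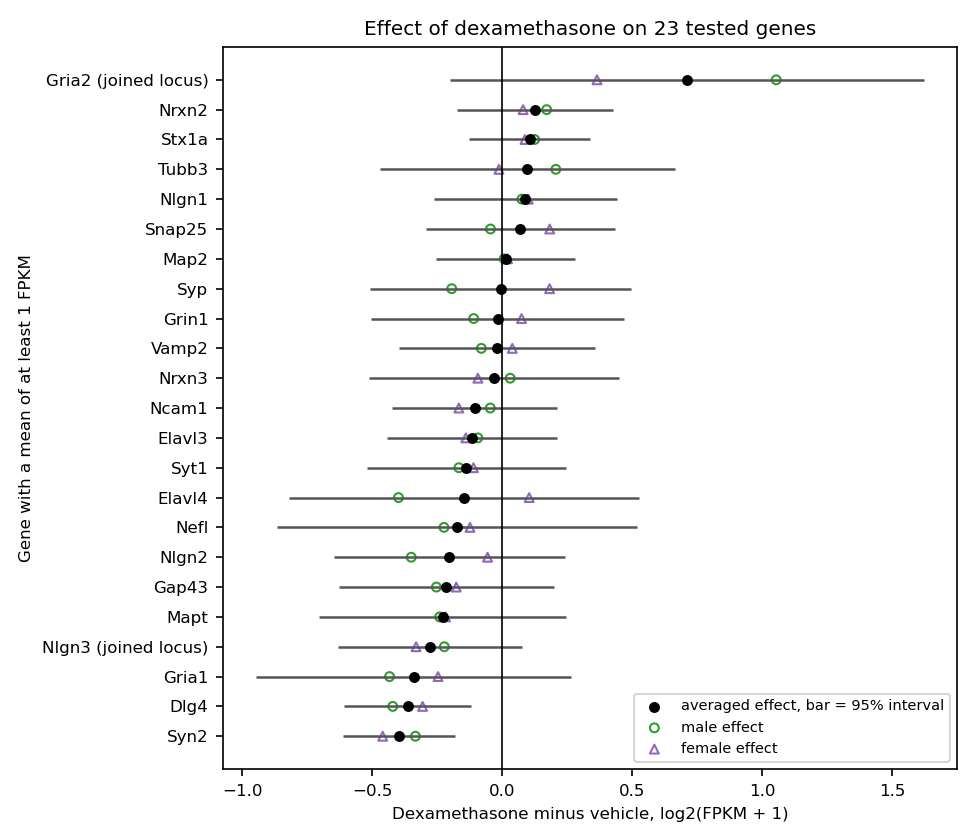
Log2 difference of dexamethasone minus vehicle, on the log2(FPKM + 1) scale, for the 23 tested genes: black points with 95% intervals for the average over the sexes, open circles for males and open triangles for females. The intervals of Syn2 and Dlg4 lie below 0 and the other 21 cross it, with the Gria2 locus the widest (-0.20 to 1.62).

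The plot of effects by gene places the male and the female estimates side by side. Whether the effect of dexamethasone differed between the sexes was tested as an interaction, the female minus the male effect. None of the 23 genes was called (0.0335% of all loci were), and none had an unadjusted p under 0.05 in limma, beside 1.47% of all loci, although 1 had without female vehicle library 2. The estimates ran from -0.69 (the Gria2 locus) to 0.50 (Elavl4), and for Syn2 the difference was -0.13 with a 95% interval from -0.56 to 0.31.

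Under vehicle the female and the male cultures were also compared. None of the 23 genes was called, beside 0.0737% of all loci, and Gap43 alone had an unadjusted p under 0.05 in limma, beside 4.88%. That count was 0 without male vehicle library 1, male vehicle library 3 or female vehicle library 2, and 2 without male vehicle library 2. Without overlap between the sexes, Mapt was higher in females, beside 5.67% of all loci, and Gap43 and Syt1 were lower in females, beside 3.54%. The median female minus male log2 difference of the 23 genes was 0.18, beside 0.032 over all loci.

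Gap43 was 150.6, 142.7 and 164.1 FPKM in male and 83.8, 86.8 and 130.0 FPKM in female vehicle cultures. Every male value was above every female value, and the log2 difference was -0.63 (SE 0.263, adjusted p = 0.892 in limma). Under dexamethasone the sexes overlapped, with 97.9, 134.3 and 158.1 FPKM in males and 59.4, 114.9 and 95.6 FPKM in females.

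Mapt went the other way. It was at 24.0, 20.4 and 15.1 FPKM in male vehicle and 36.1, 25.4 and 26.9 FPKM in female vehicle libraries, with no overlap and a log2 difference of 0.55 (adjusted p = 0.892 in limma). Syt1 was at 1.54, 2.1 and 2.85 FPKM in male vehicle and 1.04, 1.43 and 1.53 FPKM in female vehicle libraries, with a log2 difference of -0.43 (adjusted p = 0.892 in limma). Glial markers were compared in the same libraries, and none was called between the sexes. The summed astrocyte markers were at 416 to 1170 FPKM in male vehicle and 806 to 2045 FPKM in female vehicle libraries, with a median log2 difference of 0.69. The summed oligodendrocyte lineage markers were at 338 to 420 FPKM in male and 346 to 423 FPKM in female vehicle libraries, although the median log2 difference of the single genes was 0.98. Their part in the values of Gap43, Mapt and Syt1 was not tested.

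Single libraries also set the members apart within groups. Female vehicle library 2 was the highest of the 12 libraries for 10 of the 31 genes. Male dexamethasone library 3 was the lowest for 8 of the 31. The matching counts over all loci were not taken, so these are not shown to be particular to the 31 genes. The ratio of the highest to the lowest library was smallest for Map2 (1.52) and Stx1a (1.57). Among the tested genes it reached 9.45 for Gria1 and 7.22 for Nefl, and among the low genes 13.4 for Dcx, 11 for Gad1 and 23.8 for Grin2b.

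Dcx and Tubb3, both used as markers of young neurons, were high in the same pair of female libraries. Dcx was at 2.09 FPKM in female vehicle library 2 and 1.67 FPKM in female dexamethasone library 2, and between 0.157 and 0.552 FPKM in the other 10. Tubb3 was at 8.95 and 7.12 FPKM in those 2 female libraries and at 7.21 FPKM in male dexamethasone library 2, while its other values lay between 3.11 and 5.09 FPKM. Nlgn1 (15.5 and 16.6 FPKM), Nlgn2 (16.0 and 10.7), Gad1 (1.93 and 1.82) and Grin1 (4.19 and 4.23) were also highest in that female pair. Not every neuronal gene shared this. Female dexamethasone library 2 was the lowest of the 12 for 6 of the 31 genes, among them Nefm at 0.262 FPKM. After group means were removed, the correlation over the 12 libraries was 0.79 for Dcx and Tubb3 and 0.82 for Dcx and Nlgn2. Over all 465 pairs of the 31 genes the correlation ran from -0.85 (Map2 and Nrxn3) to 0.87 (Nefl and Nrxn3), with a median of 0.058. These correlations compare genes measured in the same libraries, so differences between libraries in preparation or depth could enter them. Their part was not tested.

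**Figure D4:**
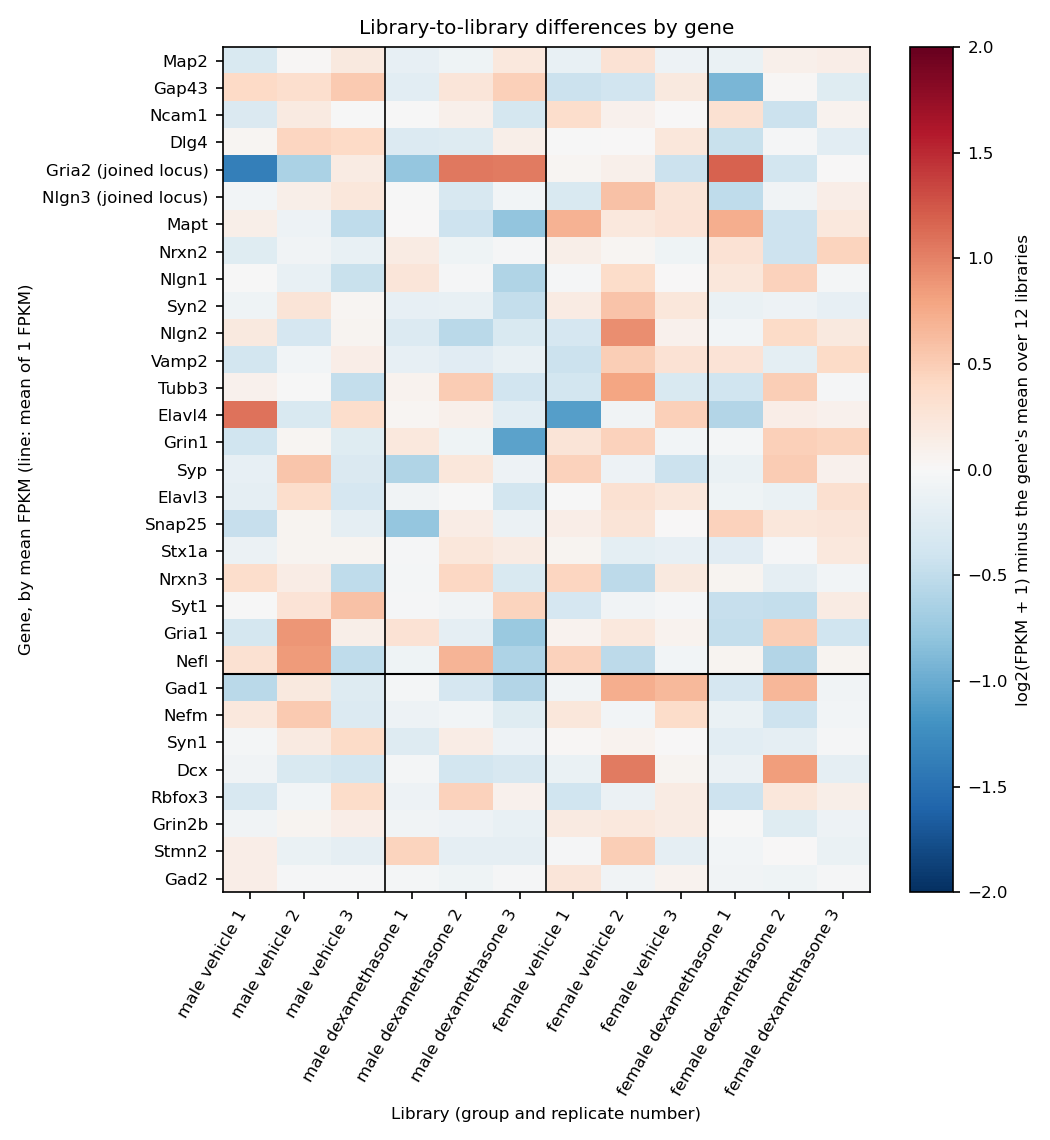
Deviation of each gene (rows, ordered by mean FPKM, with a line at a mean of 1 FPKM) from its own mean over 12 libraries (columns, grouped by sex and treatment), in log2(FPKM + 1). Female vehicle library 2 is red for many rows and is the highest for 10 of the 31 genes, and male dexamethasone library 3 is blue for many and is the lowest for 8 of the 31. Matching counts over all loci were not taken.

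The map of deviations by library shows Dcx and Tubb3 high together in replicate 2 of both female groups. Markers of the stem cells themselves were compared as well. Of the 10 neural stem and radial glial markers, Msi1 (log2 difference -0.64, adjusted p = 0.0151 in limma) and Nr2e1 (-0.57, adjusted p = 0.0475 in limma) fell under dexamethasone averaged over the sexes, and the oligodendrocyte progenitor gene Cspg4 rose (0.76, adjusted p = 0.0114 in limma). Leaving out each library in turn kept the call of Msi1 and Cspg4 in 12 of 12 fits and that of Nr2e1 in 2 of 12. Without both libraries rich in unnamed loci, Msi1 (adjusted p = 0.0997 in limma) and Nr2e1 (0.127) were no longer called. The summed stem cell markers ranged from 6471 to 7170 FPKM in male vehicle, 5960 to 6745 in male dexamethasone, 6101 to 7471 in female vehicle and 5832 to 7542 in female dexamethasone libraries. Fabp7 and Vim, at means of 3503 and 2497 FPKM, made up most of that sum. Of the 10 single stem cell markers 8 had an averaged log2 difference below 0, beside 51.5% of all loci, and their median was -0.21. Astrocyte markers, none of 8 called, summed to 470 to 1841 FPKM in male and 1050 to 1834 FPKM in female dexamethasone libraries. The part of cell composition in the values of Syn2 and Dlg4 was not tested.

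The wider neuronal program was read from 103 further genes in 4 lists, of which 67 reached a mean of 1 FPKM. Among their 67 tested loci 1 was called for the averaged effect, and 0 in males, in females, for the interaction or between the sexes, with unadjusted p-values under 0.05 in limma at 11, 4, 8, 0 and 4 loci. The shares over all loci were 13.6%, 6.38%, 8.02%, 1.47% and 4.88% in the same order. The called gene was Scg2, which encodes a granin of dense-core secretory vesicles. It was at 2.3, 1.76 and 0.817 FPKM in male vehicle, 0.495, 0.644 and 0.279 in male dexamethasone, 3.04, 2.6 and 1.67 in female vehicle, and 0.785, 0.733 and 0.366 in female dexamethasone libraries. All 6 dexamethasone libraries were below all 6 vehicle libraries, as at 0.804% of all loci.

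Scg2 fell by 0.93 in log2(FPKM + 1) (SE 0.185, adjusted p = 0.0388 in limma). The call was lost in 10 of 12 fits that left out 1 library, where the adjusted p reached 0.109, and in all it held in 9 of 20 alternatives. In the presynaptic list of 25 genes, to which Scg2 belongs, 15 loci were tested, 1 was lower and 0 were higher. Its median log2 difference was -0.19 and 12 of 15 values were below 0, beside 51.5% of all loci. The postsynaptic list of 27 genes had 20 tested loci, 0 called, a median of -0.015 and 11 values below 0. The list of 29 cytoskeletal, axonal and RNA-binding genes had 22 tested loci, 0 called, a median of -0.021 and 12 values below 0.

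The list of 22 neurogenic transcription factors and REST complex genes had 10 tested loci, 0 called, a median of -0.098 and 6 values below 0. Rest itself, the repressor of neuronal genes, was at 8.57, 8.49 and 9.54 FPKM in male vehicle, 6.89, 7.31 and 8.08 in male dexamethasone, 8.95, 8.98 and 9.56 in female vehicle, and 7.49, 6.4 and 8.07 in female dexamethasone libraries. The treatments did not overlap, a pattern seen in that direction at 0.804% of all loci. The log2 difference was -0.26 (adjusted p = 0.119 in limma).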

How the data were processed

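RNA was measured by sequencing of 12 neurosphere libraries made with a stranded total RNA kit, per the labels' protocols. The authors deposited FPKM values per locus, without counts, and absolute depth cannot be known from them. The submitters' processing notes name TopHat2 2.0.9, Cufflinks 2.2.1, Cuffdiff 2.2.1 and the GRCm38 build. No source used here gives the annotation release, the strand setting or how libraries were scaled. Of the 40597 loci, 930 joined more than 1 gene.

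The 14931 loci whose mean was 1 FPKM or more were tested, as log2(FPKM + 1), by limma 3.58.1 (R 4.3.3) with 1 mean per group over all 12 libraries and eBayes with a trend, two-sided. Benjamini-Hochberg adjustment ran over all tested loci, and intervals are at 95%. The code was tested on simulated data. Alternatives were pseudocounts of 0.1 and 0.5, no level filter or one at 5 FPKM, upper-quartile and quantile scaling, a robust fit, only the groups compared, a replicate block and each library left out. Leaving out both libraries with over 50% of FPKM at unnamed loci was added after seeing the data.

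All 31 genes are named. From the wider lists, called genes and genes a sentence needs are named. Of 6 markers of mural cells and fibroblasts 1 reached a mean of 1 FPKM. Members, lists and tests were chosen with earlier results of these data known. Coordinates are from GENCODE M21, counted from 1.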

Additional observations from a re-analysis of the deposited data

How the results depend on the processing

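No gene of the 23 was called in any of the 113 fits over 5 comparisons. The smallest adjusted p of a member was 0.0535 in limma, for Syn2 with the replicate block. Averaged log2 differences kept their sign in every alternative for 14 of the 23 genes. The other 9, never called, changed sign. With quantile normalization Map2 gave -0.13, Vamp2 0.016, Syp 0.058, Nrxn3 0.011 and Grin1 0.037. Without the 2 libraries rich in unnamed loci Tubb3 gave -0.10, Snap25 -0.025 and Vamp2 0.050. Leaving out each library in turn gave -0.055 to 0.086 for Map2, -0.020 to 0.29 for Tubb3, -0.36 to 0.030 for Elavl4, -0.029 to 0.20 for Snap25, -0.16 to 0.072 for Vamp2, -0.11 to 0.12 for Syp, -0.17 to 0.068 for Nrxn3, -0.0040 to 0.21 for Nlgn1 and -0.15 to 0.17 for Grin1. The cause was not tested.

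Counts of called loci over the whole table moved more. For the averaged effect, 229 loci became 804 with the replicate block, 114 without those 2 libraries and 146 to 215 with each library left out. For the male effect, 47 became 148 with the block, 18 with only the groups compared, 19 without those 2 libraries and 28 to 49 with each library left out. For the female effect, 72 became 187 with the block, 33 with only the groups compared and 31 to 74 with each library left out. For the interaction, 5 became 8 with the block, 8 without those 2 libraries and 4 to 14 with each library left out. For the sexes under vehicle, 11 became 20 with only the groups compared and 9 to 23 with each library left out. The cause was not tested.

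The labels do not say that equal replicate numbers share a culture, so the numbers were not used as pairs in the main fit. Deviations of same-numbered libraries of a sex correlated at 0.0819 to 0.167, over 0.1 in 4 of 6 pairs. As a hint from the data, within a sex 12 of 12 libraries correlated best with their own number, against -0.147 to 0.0338 for other numbers of that sex. With the number within each sex as the replicate block, 4 residual degrees of freedom are left in place of 8, and members with an unadjusted p under 0.05 in limma numbered 4 for the averaged effect (Syn2, Dlg4 and the Gria2 and Nlgn3 loci), 3 in males, 2 in females and 0 for the interaction. For the sexes under vehicle the block was the number across sexes, which leaves 6, and 4 members had such a p (Gap43, Mapt, Syt1 and Syn2). FPKM carry no counts, so sampling error of the genes under 1 FPKM cannot be given.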
